A study of Saccharomyces cerevisiae with 12 samples.

Results

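The response of budding yeast carrying the Ded1_IDRm-mCherry variant to 10 min at 40 °C was measured by ribosome footprinting, which counts the short RNA fragments that ribosomes protect from nuclease. Here 2 libraries of this strain at 40 °C were compared with 2 at 30 °C, which are 4 of the 12 libraries of the study, across the 5719 of 6697 genes that passed a filter on low counts. All strains were haploid W303 Ade+ laboratory yeast in which the fluorescent tag mCherry was fused to Ded1. The WT strain had the genotype Ded1-mCherry, and the other strain, called IDRm after its label, had Ded1_IDRm-mCherry. The labels do not spell out which residues IDRm changes. Each strain was grown at 30 °C from duplicate pre-cultures, and parts of each main culture spent 10 min at 30, 40 or 42 °C. Nothing in the labels says what the replicate numbers share beyond this, and p-values measure the spread between these libraries. No spike-in was recorded, so a level is a share of its library. No matched RNA sequencing was used here, so mRNA level and translation of each mRNA cannot be told apart, and in a bulk culture fewer cells using a gene and less RNA per cell cannot be told apart either.

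Heat causes yeast to activate the heat shock factor Hsf1, which binds repeats of the unit NGAAN in the promoters of chaperone genes, and the paired activators Msn2 and Msn4, which bind the stress response element AGGGG. At the same time genes for ribosomal proteins and for ribosome assembly are repressed. Ded1 is a DEAD-box RNA helicase that helps the small ribosomal subunit to scan the leaders of mRNAs during initiation. IDR is a common abbreviation for an intrinsically disordered region, and Ded1 is known to have such regions outside its helicase core.

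In IDRm the libraries held 5102189 and 5717879 counts at 30 °C and 4526976 and 4617567 at 40 °C, and 6032 to 6153 genes had a count. The 10 most abundant genes took 15.7% and 15.9% of the counts at 30 °C and 20.4% and 20.7% at 40 °C. The 6 a-cell genes fixed as markers summed to 313 to 852 counts per 1000000 of the unscaled library and the 4 alpha-cell genes to 8.43 to 22.5. Levels of single genes are given as CPM (counts per 1000000 of the scaled library). DED1 (YOR204W, chromosome XV, 722911 to 724725) was read at 1436 and 1426 CPM at 30 °C and 1052 and 1098 CPM at 40 °C in IDRm. Both libraries at 40 °C lay below both at 30 °C, and the log2 change was −0.41 ± 0.07 (quasi-likelihood test of edgeR, Benjamini-Hochberg adjusted p = 2.09e-06). In WT its levels were 1381 and 1427 CPM at 30 °C and 1319.9 and 1314 CPM at 40 °C. Counts of DED1 do not show which allele a library carried. In both strains replicate 2 at 30 °C read some heat-induced genes higher than replicate 1. HSP26 was at 79.2 against 55.0 CPM in IDRm and at 115 against 27.7 CPM in WT. Others went the other way, with ERO1 at 164 against 174 CPM in IDRm and GSY1 at 15.4 against 23.8 CPM in WT. The summed share of the general stress genes in WT was 0.265% in replicate 2 and 0.272% in replicate 1. DBP1, the paralog of DED1, moved the other way, with 8.53 and 8.56 CPM at 30 °C and 35.9 and 35.3 CPM at 40 °C and a log2 change of 2.06 ± 0.17.

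General stress genes, aggregate-handling chaperones and most genes of the Hsp70 system and of reserve carbohydrates rose in IDRm at 40 °C, while genes of ribosome biogenesis fell. Of the 5719 genes, 2137 were higher at 40 °C than at 30 °C (37.4%) and 2284 were lower (39.9%) at an adjusted p of at most 0.05, while 1298 were not called. At least 2-fold changes made up 1257 of the higher genes (22% of all tested) and 1210 of the lower genes (21.2%). With so many genes called, the size of a change and the share of a gene list that moved are given beside each count. All gene lists, that of general stress among them, were chosen with earlier results of these data known, so their shares are descriptions. The median change of all genes was 0.0057 on the log2 scale. Scaling by library size alone, with no correction for composition, moved that median to −0.221 and gave 1741 higher and 2655 lower genes.

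**Figure D1:**
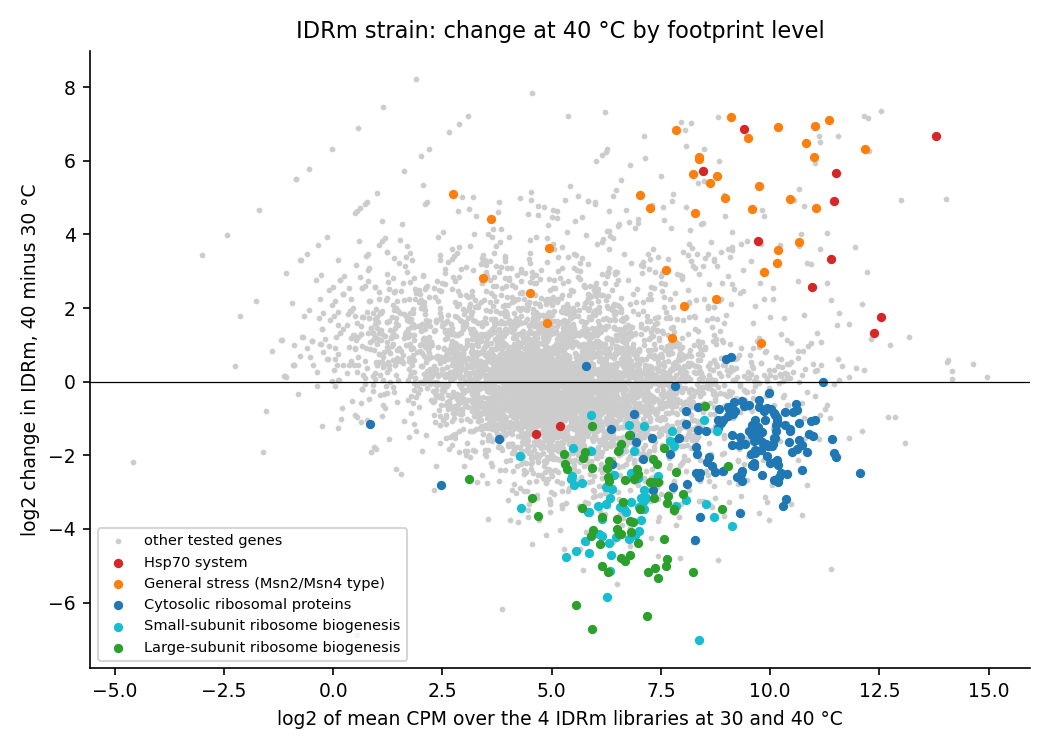
Each point is 1 tested gene in the IDRm strain. The x axis is the log2 of the mean CPM over the 4 libraries at 30 and 40 °C and the y axis the log2 change from 30 to 40 °C. Members of 5 gene lists are coloured. General stress genes lie above 0 and both lists of ribosome biogenesis below it, while ribosomal proteins form a group of high level with a median of −1.54.

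Chaperones that deal with aggregated and unfolded proteins were among the genes that rose strongly. HSP104 (YLL026W, chromosome XII, 88623 to 91349), the disaggregase that pulls proteins out of aggregates, was read at 903 and 1166 CPM at 30 °C and 31145 and 33317 CPM at 40 °C, a log2 change of 4.96 ± 0.23 (edgeR, adjusted p = 6.84e-07). HSP26 (YBR072W, chromosome II, 382030 to 382674), a small heat shock protein that binds unfolding proteins, was read at 55.0 and 79.2 CPM at 30 °C and 9229.6 and 9900.4 CPM at 40 °C and changed by 7.15 ± 0.62. SSA4 (YER103W, chromosome V, 364589 to 366517), the most heat-inducible cytosolic Hsp70, was read at 204 and 351 CPM at 30 °C and 27188 and 29168 CPM at 40 °C and changed by 6.66 ± 0.61 (adjusted p = 5.11e-05). In each of the 3 genes both libraries at 40 °C lay far above both at 30 °C, and of the 30 °C libraries replicate 2 was the higher one.

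All 6 genes of the aggregate-handling list rose, with a median log2 change of 5.81. They included BTN2, which sorts misfolded proteins into deposits, at 49.3 and 70.3 CPM at 30 °C and 8878 and 9094 CPM at 40 °C, and HSP42, another small heat shock protein, at 46.5 and 69.7 CPM at 30 °C and 5768 and 6056 CPM at 40 °C. Their changes were 7.22 ± 0.83 and 6.66 ± 0.58, with groups that did not overlap. In the Hsp70 system 10 of 12 genes rose and 2 fell, with a median of 3.57. SSA3, an inducible Hsp70, changed by 6.87 ± 0.22, APJ1, an Hsp40 co-chaperone, by 5.72 ± 0.26, and SSA1, a cytosolic Hsp70 that shares 64.7% of its 28-base words with other genes, by 3.33 ± 0.08. The pair that fell, SNL1 (−1.42) and XDJ1 (−1.21), was looked up after the values were seen. Among Hsp90 and its co-chaperones 9 of 13 rose and 4 fell, with a median of 0.79. HSP82, the inducible Hsp90, was read at 446 and 588 CPM at 30 °C and 15233 and 16242 CPM at 40 °C, STI1, which links Hsp70 to Hsp90, changed by 3.66 ± 0.08, and CPR6, a cyclophilin of that complex, by 3.21 ± 0.08. The members that fell were CNS1, TAH1, CPR7 and PIH1, at −1.46, −1.21, −0.65 and −0.53, again named after their values were seen.

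Chaperones of the mitochondrion and of the endoplasmic reticulum also held members that rose and members that fell. Of 12 mitochondrial chaperones 8 rose and 3 fell, with a median of 1.14. HSP78, the mitochondrial disaggregase, was read at 96.7 and 152 CPM at 30 °C and 9486 and 9794 CPM at 40 °C and changed by 6.27 ± 0.52, MDJ1, a mitochondrial Hsp40, changed by 4.05 ± 0.13, and TIM44, which tethers Hsp70 to the import channel, fell by 1.88 ± 0.11 on the log2 scale. Of 14 folding factors of the endoplasmic reticulum 10 rose and 3 fell, with a median of 0.51. ERO1, the oxidase that drives disulfide formation, was read at 174 and 164 CPM at 30 °C and 2190.0 and 2227 CPM at 40 °C, KAR2, the Hsp70 of the lumen, changed by 2.98 ± 0.07, and MPD1, a disulfide isomerase, by 3.13 ± 0.10. Chaperones that bind nascent chains, TRiC and prefoldin went the other way, with 1 higher and 18 lower of 21 and a median of −1.45. SSB1 and SSB2, the Hsp70s of the ribosome, fell from 1599 and 1562 to 135 and 132 CPM and from 1868 and 1869 to 145 and 129 CPM, and CCT5, a subunit of TRiC, from 409 and 372 to 48.2 and 51.8 CPM. Near-identical sequence makes the split of counts between SSB1 and SSB2 uncertain, though both fell.

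All 37 general stress genes of the Msn2 and Msn4 type rose, with a median of 4.96, against a background of 37.4% of all genes called higher. Their summed share of the library counts went from 0.254% and 0.299% at 30 °C to 5.14% and 5.31% at 40 °C. HSP12 (YFL014W, chromosome VI, 107256 to 107585), a small protein that stabilises membranes, was read at 25.2 and 42.1 CPM at 30 °C and 3995 and 4326 CPM at 40 °C and changed by 6.93 ± 0.38 (adjusted p = 2.48e-06). TMA10, a ribosome-associated protein, changed by 7.11 ± 0.29, and ALD3, an aldehyde dehydrogenase that shares 51.7% of its sequence words with another gene, by 7.17 ± 0.20. All 4 values of each gene fell into 2 groups by temperature that lay far apart.

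The windows upstream of HSP104 and HSP12 are shown because their genes stand for both classes of heat-induced gene. Each runs from 400 to 101 bases before the start codon on the coding strand, in R64. The window of HSP104 is chrXII:88223-88522 (+ strand) and that of HSP12 is chrVI:106856-107155 (+ strand). Capitals mark matches to the 3-unit heat shock element TTCNNGAANNTTC or GAANNTTCNNGAA and to AGGGG or its complement CCCCT.
HSP104: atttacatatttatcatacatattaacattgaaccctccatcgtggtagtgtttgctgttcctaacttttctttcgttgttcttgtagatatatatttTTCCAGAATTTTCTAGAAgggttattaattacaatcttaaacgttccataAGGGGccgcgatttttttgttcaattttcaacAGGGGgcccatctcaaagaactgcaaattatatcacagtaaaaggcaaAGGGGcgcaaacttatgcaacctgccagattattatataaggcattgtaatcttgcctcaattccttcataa
HSP12: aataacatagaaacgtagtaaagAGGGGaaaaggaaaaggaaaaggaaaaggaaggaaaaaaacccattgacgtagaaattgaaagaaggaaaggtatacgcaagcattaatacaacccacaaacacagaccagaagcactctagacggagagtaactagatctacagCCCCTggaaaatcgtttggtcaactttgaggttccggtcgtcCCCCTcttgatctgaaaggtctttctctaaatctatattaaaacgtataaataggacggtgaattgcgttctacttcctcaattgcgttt
The window of HSP104 held 2 overlapping matches to the heat shock element and 3 to the stress response element, and that of HSP12 held 3 of the stress response element and none of the other. Matches were searched on both strands. Of 5571 windows of this length, 63 (1.13%) held the 3-unit heat shock element and 1332 (23.9%) the stress response element. The shares were 4.38% and 51.6% among 548 genes that rose at least 4-fold, and 1.15% and 12.8% among 436 that fell at least 4-fold. In the general stress list 35 of 37 windows held AGGGG (94.6%), in the Hsp70 system 5 of 12 held the heat shock element (41.7%), and in the aggregate-handling list 3 of 6 did. The general stress list was made of genes of the Msn2 and Msn4 type, so its share with AGGGG is not independent of that choice. The windows of SSA4, HSP26 and HSP82 held no 3-unit heat shock element, while that of EFB1, at −1.55 in IDRm, held 2 matches. The median change of the 63 genes with a heat shock element was 1.21 and that of the 5508 genes without one was −0.03. These matches describe the letters of the windows and do not show binding.

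**Figure D2:**
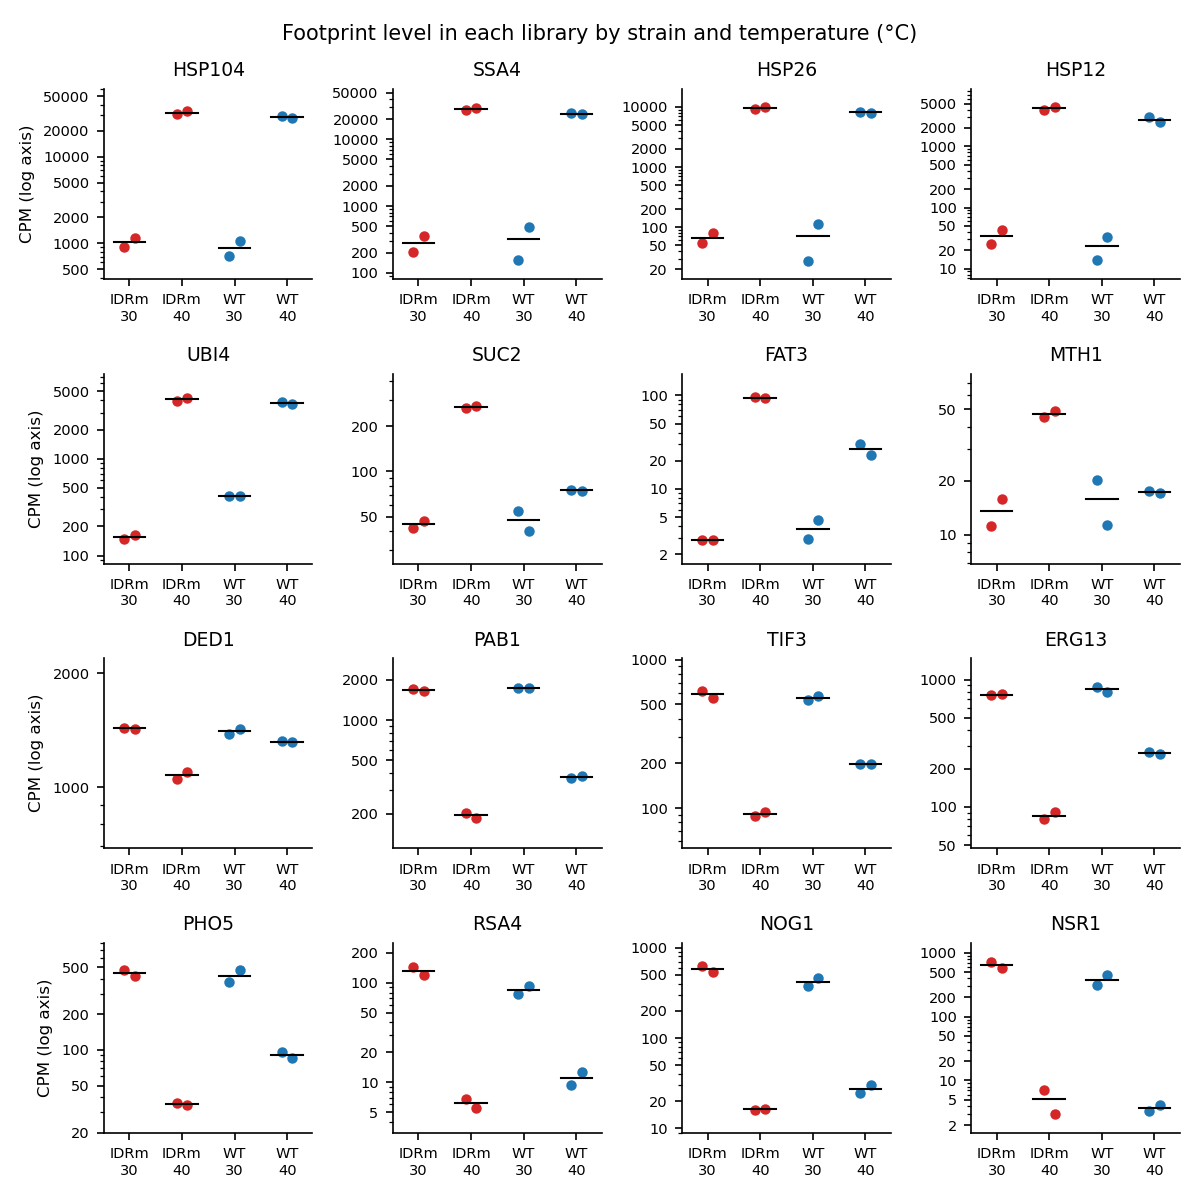
CPM on a log axis in each library of the IDRm strain (red) and the WT strain (blue) at 30 and 40 °C. Points are single libraries and bars are means of 2 libraries. In all libraries at 40 °C HSP104, SSA4, HSP26 and HSP12 lie above all libraries at 30 °C, while SUC2, FAT3 and MTH1 are higher, and PAB1, TIF3, ERG13, PHO5, RSA4 and NOG1 lower, in IDRm than in WT at 40 °C.

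Among the 12 highest rises over all genes were also genes outside the chaperone and stress lists. HSP30, a plasma membrane protein known to restrain the proton pump Pma1, was read at 57.6 and 87.6 CPM at 30 °C and 11619 and 12092 CPM at 40 °C and changed by 7.34 ± 0.90 (adjusted p = 0.000259). ROQ1, which redirects the ubiquitin ligase Ubr1 to misfolded proteins, was read at 4.36 and 7.55 CPM at 30 °C and 871 and 912 CPM at 40 °C. COX26, a small protein bound to cytochrome oxidase, was read at 0.569 and 1.17 CPM at 30 °C and 139 and 156 CPM at 40 °C, and the level at 30 °C rests on few counts. FMP45 and YNL194C, related membrane proteins of the cell cortex, changed by 7.06 ± 0.23 and 7.03 ± 0.17. HXT6, a high-affinity glucose transporter, was read at 0.190 and 0.839 CPM at 30 °C and 86.1 and 79.1 CPM at 40 °C, with 96% of its words shared with another gene, so that its counts are uncertain. The frame at the top of this ranking is uncharacterised and was near 0 at 30 °C.

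Of 17 genes of reserve carbohydrates 16 rose and none fell (median 3.61). PGM2, phosphoglucomutase, was read at 29.8 and 55.1 CPM at 30 °C and 4285 and 4522 CPM at 40 °C, TSL1, a subunit of trehalose synthase, changed by 5.94 ± 0.34, and GSY1, glycogen synthase, by 5.11 ± 0.16. Among 23 antioxidant genes 18 rose and 2 fell (median 1.14). CTT1, the cytosolic catalase, was read at 14.0 and 23.7 CPM at 30 °C and 2230.1 and 2376 CPM at 40 °C, the peroxiredoxin TSA2 changed by 4.10 ± 0.15 and the glutathione peroxidase GPX1 by 3.64 ± 0.18. The pair that fell makes glutathione itself: GSH1 was at −2.56 and GSH2 at −1.99, named after their values were seen.

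Of 11 stress transcription factors 7 rose and 4 fell, with a median of 0.77. MGA1, a protein with a heat shock factor type of DNA-binding domain, was read at 6.26 and 6.38 CPM at 30 °C and 524 and 540.4 CPM at 40 °C, and HAC1, the activator of the unfolded protein response, at 28.1 and 29.2 CPM at 30 °C and 916 and 999 CPM at 40 °C. HSF1 changed by 0.61 ± 0.12 and MSN4 by 0.77 ± 0.10, while MSN2, named after its value was seen, was at −0.82. The changes in this list thus ran from small to large. Of 14 genes of autophagy and vacuolar proteases 12 rose and none fell (median 1.60). ATG8, the ubiquitin-like protein of the autophagosome, changed by 3.08 ± 0.13, ATG17 by 2.23 ± 0.18 and ATG7 by 2.22 ± 0.14. Ubiquitin and quality control had 10 higher and 7 lower genes of 20 (median 0.38), with UBI4, polyubiquitin, at 4.72 ± 0.08, TMC1 at 3.66 ± 0.08 and HRD1, a ligase of the endoplasmic reticulum, at 2.34 ± 0.12. The proteasome had 9 higher and 13 lower members of 33 and a median of 0.04 that was −0.19 when only library size was scaled and −0.04 to −0.0047 without IDRm 30 °C replicate 1, 30 °C replicate 2 or 40 °C replicate 2. PRE2, RPN11 and RPN10 were at 0.86 ± 0.08, 0.63 ± 0.08 and −1.19 ± 0.09. Both lists lay near the shares of all genes, which were 37.4% higher and 39.9% lower. The values were 50% and 35% for ubiquitin and quality control and 27.3% and 39.4% for the proteasome.

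Ribosome biogenesis held the deepest falls. All 62 genes of the small subunit pathway and all 67 of the large subunit pathway fell, with medians of −3.32 and −3.30, against 39.9% of all genes called lower. NSR1 (YGR159C, chromosome VII, 806412 to 807656), which processes pre-rRNA in the nucleolus, was read at 727 and 581 CPM at 30 °C and 7.09 and 2.99 CPM at 40 °C, a change of −7.01 ± 0.35 (edgeR, adjusted p = 5.59e-07). NOG1 (YPL093W, chromosome XVI, 370978 to 372921), a GTPase of the nascent large subunit, was read at 627 and 543 CPM at 30 °C and 16.1 and 16.4 CPM at 40 °C, a change of −5.16 ± 0.13. Both libraries at 40 °C lay far below both at 30 °C in either gene. ALB1 and CIC1, factors of the nascent large subunit, changed by −6.71 ± 0.24 and −6.36 ± 0.17, and REI1, a late factor whose frame overlaps another gene over 38.3% of its length, by −6.06 ± 0.29. UTP9 and SOF1, of the small subunit processome, changed by −5.85 ± 0.19 and −5.14 ± 0.18. SPB1, a methyltransferase of pre-rRNA, IPI3, of the Rix1 complex, and NOG2, another GTPase, were at −5.34 ± 0.14, −5.17 ± 0.19 and −5.17 ± 0.20. Between the lists the summed share of counts went from 1.55% and 1.38% to 0.195% and 0.180% for the small subunit, and from 1.73% and 1.51% to 0.186% and 0.171% for the large subunit.

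The windows upstream of NSR1 and NOG1 are shown because they hold both motifs known from genes of ribosome biogenesis, PAC (GCGATGAG) and RRPE (GAAAAATTT). They have the same distance from the start codon as those above. The window of NSR1 is chrVII:807757-808056 (− strand) and that of NOG1 is chrXVI:370578-370877 (+ strand), and capitals mark matches to either motif on either strand.
NSR1: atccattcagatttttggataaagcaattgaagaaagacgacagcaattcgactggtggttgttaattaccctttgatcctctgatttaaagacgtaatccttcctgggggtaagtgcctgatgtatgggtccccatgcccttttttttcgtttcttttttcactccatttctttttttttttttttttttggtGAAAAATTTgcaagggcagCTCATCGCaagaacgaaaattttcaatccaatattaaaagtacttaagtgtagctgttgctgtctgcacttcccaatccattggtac
NOG1: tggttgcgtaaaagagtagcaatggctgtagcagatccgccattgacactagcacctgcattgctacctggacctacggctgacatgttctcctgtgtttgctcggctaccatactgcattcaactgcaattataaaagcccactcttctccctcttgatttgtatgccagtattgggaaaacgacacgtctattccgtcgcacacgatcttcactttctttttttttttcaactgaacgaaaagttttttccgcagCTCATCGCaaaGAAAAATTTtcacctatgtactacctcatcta
In each window PAC and RRPE occurred 1 time each and did not overlap. Over all 5571 windows PAC was found in 204 (3.66%) and RRPE in 373 (6.7%). Among the 436 genes that fell at least 4-fold the shares were 16.7% and 30.3%, and among the 548 that rose at least 4-fold 1.82% and 3.1%. In the list of the small subunit 23 of 62 windows held PAC and 36 held RRPE, and in that of the large subunit 27 and 29 of 67. Genes with PAC had a median change of −1.38 and those with RRPE one of −1.27.

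RNA polymerases I and III, which transcribe the ribosomal RNAs and the tRNAs, fell in all 21 genes (median −2.17). RPA43 was read at 186 and 169 CPM at 30 °C and 5.87 and 1.99 CPM at 40 °C, and RPA12 and RPA34 changed by −5.11 ± 0.19 and −3.89 ± 0.13, all of them subunits of polymerase I. The cytosolic ribosomal proteins had 131 lower and 3 higher members of 136 (median −1.54). Their share of all counts went from 18.3% and 18.2% at 30 °C to 5.59% and 5.43% at 40 °C. RPL4A, RPL11A and RPL21B were at −4.29 ± 0.11, −3.67 ± 0.10 and −3.56 ± 0.08, and each shares sequence with its duplicate gene, as do 62 members of the list. The members that rose were RPL41A (0.61), RPL41B (0.67) and RPL15B (0.43), named after their values were seen, and RPL41A and RPL41B encode the shortest protein of the ribosome. Mitochondrial ribosomal proteins moved far less, with 11 higher (15.5%) and 31 lower (43.7%) of 71 and a median of −0.21. All genes had 37.4% higher and 39.9% lower, so the share of these proteins that fell lay near that of all genes. Library size alone gave 2 higher and 42 lower of them. MRP7 and MRPL20 changed by −2.40 ± 0.18 and −1.96 ± 0.18, while MRP8, which was counted with them by its name, went from 144 and 159 to 598 and 617 CPM.

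The factors that carry out translation fell as well. In the list of the cap-binding complex, RNA helicases and PAB1, 9 of 11 fell and 2 rose, with a median of −0.85. PAB1 (YER165W, chromosome V, 510373 to 512106), which coats poly(A) tails, was read at 1717 and 1663 CPM at 30 °C and 203 and 185 CPM at 40 °C, a change of −3.12 ± 0.07 (edgeR, adjusted p = 3.47e-27). TIF3, eIF4B, a partner of the helicase eIF4A, was read at 618 and 555 CPM at 30 °C and 88.8 and 93.6 CPM at 40 °C, and TIF4631, eIF4G, changed by −2.30 ± 0.07. In all 3 genes the libraries at 40 °C lay below those at 30 °C. The members that rose were DBP1 and EAP1, an inhibitor of the cap-binding protein, at 0.21.

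Of 20 other initiation factors 18 fell and none rose, with a median of −1.51. NIP1, a subunit of eIF3, was read at 942 and 889 CPM at 30 °C and 76.3 and 68.9 CPM at 40 °C, TIF5, eIF5, changed by −2.79 ± 0.09 and GCD11, a subunit of eIF2, by −2.32 ± 0.08. Of 14 elongation and termination factors 11 fell and 2 rose, with a median of −1.27. EFT1, translocase eEF2, whose copy shares nearly all of its sequence, changed by −3.17 ± 0.11, the release factors SUP35 and SUP45 by −2.84 ± 0.08 and −2.61 ± 0.09, and TEF1, elongation factor 1A, likewise duplicated, by −0.64 ± 0.08. All but 1 of 20 cytosolic tRNA synthetases fell (median −0.94), and 1 rose. ALA1, for alanine, was read at 988 and 942 CPM at 30 °C and 102 and 98.0 CPM at 40 °C, and CDC60, for leucine, and ILS1, for isoleucine, changed by −2.66 ± 0.07 and −1.61 ± 0.07. Stress granules and mRNA decay had 5 higher and 16 lower members of 23 (median −0.78). XRN1, the cytoplasmic exonuclease, was at −2.20 ± 0.09 and EDC3, a decapping enhancer, at −2.12 ± 0.14, while EDC2 was at 4.17 ± 0.14.

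**Figure D3:**
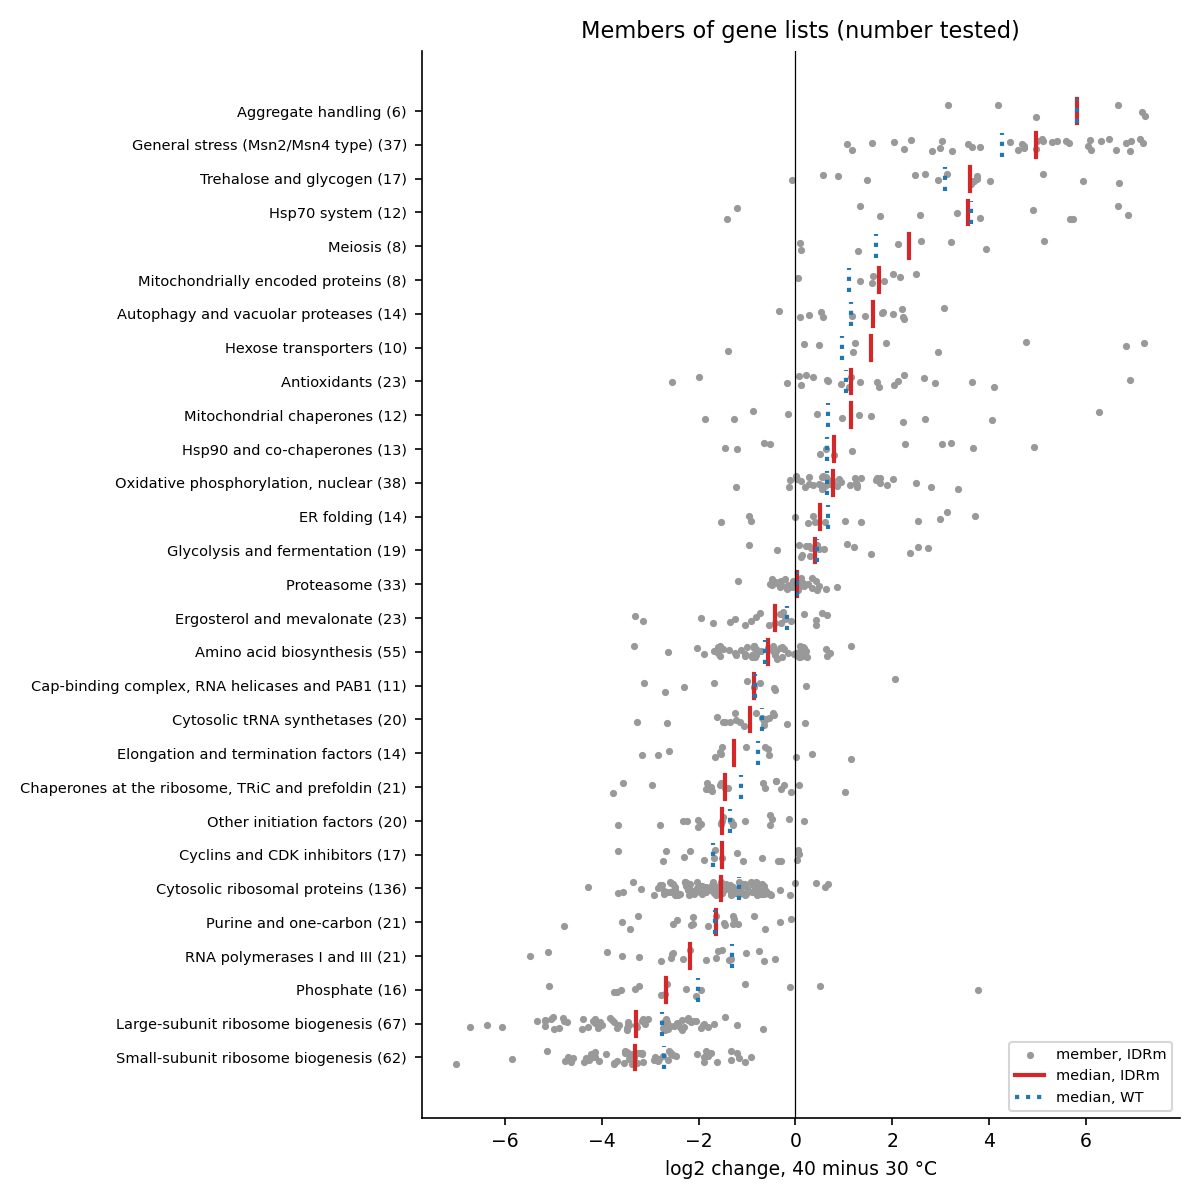
Log2 change from 30 to 40 °C of the members of gene lists in IDRm (grey points), with the median in IDRm (red line) and in WT (dotted blue line), and the number of genes tested in brackets. Members of the top lists lie to the right of 0 and those of ribosome biogenesis to its left, and the IDRm median is farther left than the WT median for ribosomal proteins, biogenesis and RNA polymerases.

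Energy metabolism rose in part. Of 38 nuclear genes of oxidative phosphorylation 31 rose and 1 fell (median 0.78). NDE2 and NDI1, dehydrogenases of the inner membrane, were at 3.36 ± 0.26 and 2.79 ± 0.09 and QCR8, of complex III, at 2.49 ± 0.08. Of 8 mitochondrially encoded proteins 7 rose (median 1.72), with COX2 at 2.01 ± 0.18, VAR1 at 2.50 ± 0.51 and COB at 2.15 ± 0.24, but they took only 0.00972% to 0.0245% of the counts and COB overlaps other annotated genes. The TCA and glyoxylate cycles had 13 higher and 3 lower genes of 17 (median 0.75), with the citrate synthases CIT1 and CIT2 at 2.41 ± 0.16 and 2.10 ± 0.10 and MDH1 at 2.25 ± 0.09. Glycolysis and fermentation had 13 higher and 2 lower of 19 (median 0.41). TDH1, a glyceraldehyde phosphate dehydrogenase that shares 28.8% of its words, was at 2.75 ± 0.09, PYK2 at 2.54 ± 0.10 and PDC6 at 2.36 ± 0.31, while PGK1 and ADH1 were at 1.21 ± 0.07 and 0.59 ± 0.08. CDC19, the main pyruvate kinase, fell from 8739.6 and 8824 to 4389.6 and 4668 CPM. Of 10 hexose transporters 8 rose and 1 fell (median 1.55), with HXT5 at 6.82 ± 0.16 and HXT7, which shares 96% of its words, at 4.75 ± 0.13, while HXT1, a low-affinity transporter, was at −1.40 (named after its value was seen).

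Biosynthesis mostly fell. Of 21 genes of purine and one-carbon metabolism 20 fell and none rose (median −1.64). IMD4, an enzyme of GTP synthesis, was read at 478 and 461 CPM at 30 °C and 17.1 and 17.2 CPM at 40 °C, and SHM1 and ADE17 changed by −3.57 ± 0.10 and −3.41 ± 0.09. Of 21 genes of sulfur and methionine 14 fell and 4 rose (median −0.57). MET6, methionine synthase, was read at 2988 and 3251 CPM at 30 °C and 248 and 256 CPM at 40 °C, SAM1, which makes S-adenosylmethionine, was at −3.11 ± 0.09 and MET10 at −1.93 ± 0.12. Amino acid biosynthesis had 8 higher and 38 lower of 55 (median −0.57), with ILV5 at −3.33 ± 0.09, CPA1 at −2.62 ± 0.14 and ARO1 at −2.03 ± 0.07. Of 23 genes of ergosterol and mevalonate 17 fell and 4 rose (median −0.41). ERG13 and ERG2, early and late enzymes of the pathway, were read at 753 and 771 CPM at 30 °C and 80.0 and 90.8 CPM at 40 °C and at 446 and 459.9 CPM at 30 °C and 50.1 and 41.1 CPM at 40 °C. Fatty acids and phospholipids had 12 lower and 5 higher genes of 18 (median −0.82), with INO1 at −2.99 ± 0.21, FAS2 at −2.80 ± 0.07 and ACC1 at −2.46 ± 0.07. For translocation and glycosylation in the endoplasmic reticulum 14 of 21 genes fell and 2 rose (median −0.70), with OST1 at −2.81 ± 0.11 and PMT1 at −1.72 ± 0.08.

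At the cell surface and in the nucleus the lists were mixed, beside 37.4% of all genes called higher and 39.9% called lower. Iron genes (46.7% higher and 33.3% lower) and plasma membrane pumps and permeases (45% and 50%) lay near those shares. Of 16 phosphate genes 13 fell and 2 rose (median −2.68). PHO84, the high-affinity phosphate transporter, was read at 5368 and 5059.8 CPM at 30 °C and 168 and 138 CPM at 40 °C, though its whole frame overlaps another annotated one. PHO5 and PHO11, acid phosphatases with shared sequence, were at −3.69 ± 0.11 and −3.74 ± 0.28, and PHM8, a phosphatase, rose by 3.78 ± 0.13. Plasma membrane pumps and permeases had 9 higher and 10 lower of 20 (median −0.17), with PMA1, the proton pump, at 9749 and 9736 CPM at 30 °C and 5003 and 5057 CPM at 40 °C and PHO89, a phosphate transporter, at −3.24 ± 0.13. Cell wall genes had 14 higher and 8 lower of 24 (median 0.33), with TIP1, a mannoprotein, at 3.73 ± 0.08, FKS1, glucan synthase, at −2.80 ± 0.08 and CHS3, chitin synthase, at −2.28 ± 0.11. Iron genes had 7 higher and 5 lower of 15 (median 0.69), with TIS11 and CTH1, which promote decay of mRNAs, at 3.94 ± 0.20 and 3.34 ± 0.10 and HMX1 at 2.77 ± 0.16. Nuclear transport had 5 higher and 10 lower of 16 (median −0.62), with the importin PSE1 at −3.24 ± 0.11, MEX67 at −1.72 ± 0.13 and LOS1 at −1.59 ± 0.11.

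Of 17 cyclins and CDK inhibitors 13 fell and none rose (median −1.52), with PCL1 at −3.66 ± 0.20, CLB2 at −2.73 ± 0.20 and FAR1 at −2.68 ± 0.15. Histone genes had 6 higher and 1 lower of 10 (median 0.35), with HTA1 at 1.07 ± 0.07, HTA2 at −0.86 ± 0.08 and HHF1, which shares sequence with its copy, at 0.98 ± 0.08. Genes of Ras, cyclic AMP and protein kinase A had 8 higher (50%) and 7 lower (43.8%) of 16, near the 37.4% and 39.9% of all genes. Their median of 0.10 became −0.12 with library size alone. YAK1, a kinase of growth arrest, was at 2.96 ± 0.09, RAS2 at 2.06 ± 0.07 and TPK3 at −2.05 ± 0.17. Of 8 meiosis genes 6 rose and none fell (median 2.35). IME1, the activator of meiosis, was read at only 1.90 and 2.18 CPM at 30 °C and 19.1 and 19.4 CPM at 40 °C and IME2 at 0.759 and 0.504 CPM at 30 °C and 10.3 and 9.46 CPM at 40 °C. SPS100 was at 5.14 ± 0.22, with 96.4% of its frame overlapped by another. Among the a-cell genes 5 of 6 fell and 1 rose (median −0.94), with STE6, the a-factor exporter, at −2.09 ± 0.11, MFA2 at −1.47 ± 0.11 and STE2 at −1.23 ± 0.09. Of the alpha-cell genes 2 could be tested and rose, STE3 at 2.06 ± 0.28 and SAG1 at 0.81 ± 0.24 (median 1.43), at levels of at most 10.0 and 13.2 and 8.80 and 11.2 CPM at 40 °C, and SAG1 was not called without IDRm 40 °C replicate 2 (adjusted p = 0.0723). Of 6 auxotrophic markers 4 fell and none rose (median −0.77), with ADE2 at −1.28 ± 0.08, URA3 at −1.23 ± 0.10 and HIS3 at −1.04 ± 0.29. ACT1, actin, was at 0.38 ± 0.07.

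Change and level were related across genes. When genes were divided into 5 bins of near-equal size by mean level over the 8 libraries of both strains at 30 and 40 °C, the median change in IDRm was 0.75 in the lowest bin and −0.27 in the highest, with −0.0025, −0.16 and −0.17 between them. Spearman's rho of change and level was −0.225 across 5719 genes and that of change and coding length −0.15 across 5590 genes. Genes of the lowest bin, which began at 0.226 CPM, could pass the filter through 1 group in which they were high. The part of the filter in the median of that bin was not tested. Genes of 1 library share its depth and composition, so these are descriptions.

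The response of IDRm was next compared with that of WT, which passed through the same temperatures. In WT 2062 genes rose (36.1%) and 2257 fell (39.5%). The changes of both strains, which share no library, had a Pearson correlation of 0.957 across genes, and their standard deviation was 1.69 in IDRm and 1.53 in WT. The difference itself, the change in IDRm minus that in WT, was tested in the same fit, and it was positive in 218 genes (3.81%) and negative in 487 (8.52%). Of the 218, 157 had risen in IDRm and 41 had fallen, and of the 487, 407 had fallen and 51 had risen. The counts depended on single libraries: they were 119 and 307 without WT 40 °C replicate 2, 122 and 361 without IDRm 30 °C replicate 1, and 130 and 356 without IDRm 40 °C replicate 2, and the DESeq2 Wald test gave 119 and 340. Few differences were large, since 51 positive and 60 negative ones reached 2-fold.

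**Figure D4:**
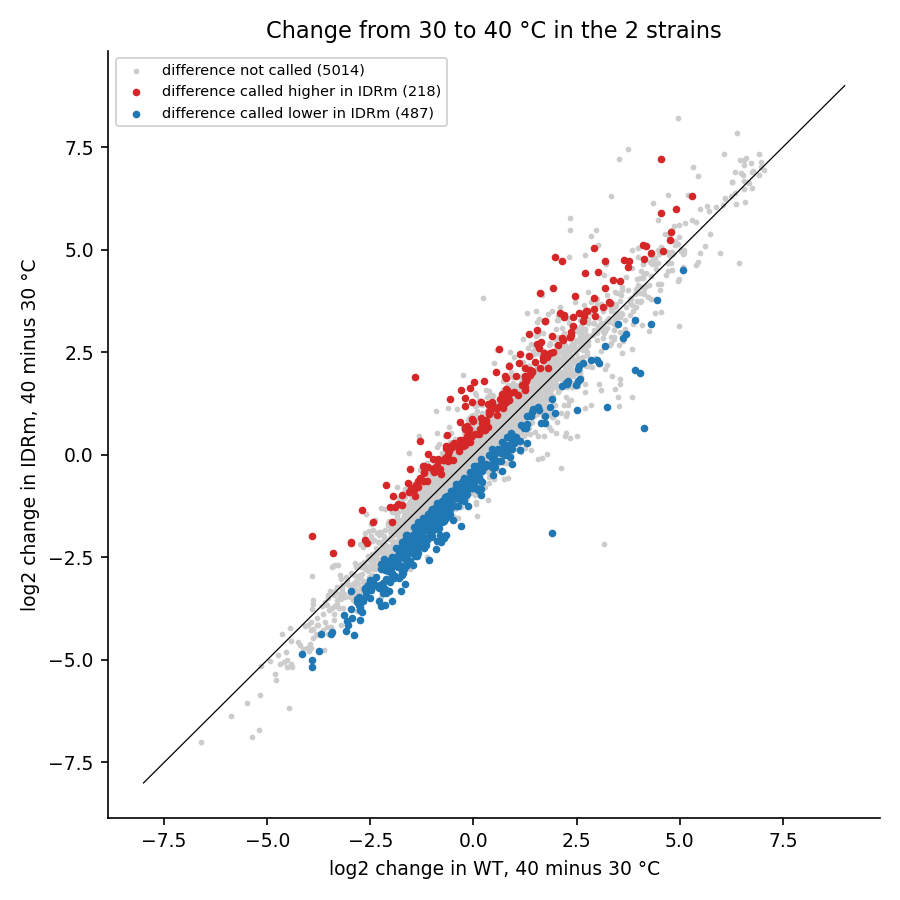
Log2 change from 30 to 40 °C in WT (x axis) and IDRm (y axis), 1 point per tested gene, with the line of equal change. Red points are the 218 genes with a called positive difference and blue points the 487 with a called negative one. Most genes lie near the line, and the blue points lie mainly below it where both strains fell.

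Genes of the translation machinery made up a large part of the negative differences. Over 8 lists, which hold the ribosomal proteins, both biogenesis pathways, RNA polymerases I and III, initiation, elongation and termination factors and tRNA synthetases, 146 of 351 genes had a negative difference (41.6%, against 8.52% of all genes) and 3 a positive one. These 146 were 30% of the 487. In the highest of the 5 bins of mean level, 24.2% of genes had a negative difference, and the part of level in these counts was not tested. Ribosomal proteins were 75 negative and 2 positive of 136, with a median change of −1.54 in IDRm and −1.16 in WT and a median of −0.38 for the members' own differences. Their share of counts at 40 °C was 5.59% and 5.43% in IDRm and 6.88% and 7.22% in WT, from 18.7% and 18.2% in WT at 30 °C. RPL11A (YPR102C, chromosome XVI, 731224 to 731748) was read at 635 and 609 CPM at 30 °C and 54.8 and 43.0 CPM at 40 °C in IDRm and at 679.9 and 651 CPM at 30 °C and 136 and 161 CPM at 40 °C in WT, a difference of −1.51 ± 0.13 (edgeR, adjusted p = 6.2e-10). RPL24B was read at 1069.5 and 998 CPM at 30 °C and 177 and 169.9 CPM at 40 °C in IDRm and at 1002 and 951 CPM at 30 °C and 437 and 484 CPM at 40 °C in WT, a difference of −1.49 ± 0.10. At 40 °C both IDRm libraries lay below both WT libraries in either gene, while at 30 °C IDRm minus WT was −0.10 ± 0.08 for RPL11A and 0.08 ± 0.07 for RPL24B on the log2 scale. RPL4A and RPL21B differed by −1.21 ± 0.15 and −0.89 ± 0.11. Where a duplicate gene shares sequence, as for these members, the split of counts within the pair is uncertain.

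Initiation factors and their partners on the mRNA were among these genes. TIF3 was read at 535 and 567 CPM at 30 °C and 197 and 199 CPM at 40 °C in WT, and its difference was −1.21 ± 0.11 (edgeR, adjusted p = 1.26e-09). PAB1 was read at 1728 and 1733 CPM at 30 °C and 370.3 and 381 CPM at 40 °C in WT, a difference of −0.92 ± 0.10 (adjusted p = 2.17e-08). At 40 °C both IDRm libraries lay below both WT libraries in either gene, while at 30 °C IDRm minus WT was 0.09 ± 0.07 for TIF3 and −0.03 ± 0.06 for PAB1 on the log2 scale. In their list 5 of 11 genes had a negative difference, DED1 itself among them at −0.32 ± 0.10, a call that ended when any of 7 single libraries was left out (adjusted p of 0.0506 to 0.117) and in DESeq2. Among the other initiation factors 6 of 20 were negative and 1 positive. NIP1 differed by −0.88 ± 0.12 and GCD11 by −0.73 ± 0.11, and the subunits PRT1 and RPG1 of eIF3, named after their values were seen, by −0.63 and −0.65, while GCN2, the kinase of eIF2, was at 0.70. Elongation and termination factors were negative in 8 of 14 cases and positive in none, with EFB1, the exchange factor of eEF1A, at −0.88 ± 0.09, SUP35 at −0.76 ± 0.11 and TEF1 at −0.48 ± 0.12, which was not called with library size alone. EFT1 differed by −0.62 ± 0.16, which was not called without WT 40 °C replicate 2 (adjusted p = 0.135) or IDRm 40 °C replicate 1. Of the synthetases 7 of 20 were negative, with CDC60 at −0.83 ± 0.10 and ALA1 at −0.64 ± 0.11.

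In ribosome biogenesis 18 of 62 genes of the small subunit and 23 of 67 of the large subunit had a negative difference, and none a positive one. At 30 °C the small subunit list held 1.55% and 1.38% of the counts in IDRm and 1.14% and 1.28% in WT. At 40 °C it held 0.195% and 0.180% in IDRm and 0.195% and 0.231% in WT. The large subunit list held 1.73% and 1.51% in IDRm and 1.17% and 1.365% in WT at 30 °C. At 40 °C its shares were 0.186% and 0.171% in IDRm and 0.197% and 0.227% in WT. RSA4, which remodels the nascent large subunit, was read at 143 and 119 CPM at 30 °C and 6.85 and 5.47 CPM at 40 °C in IDRm and at 77.5 and 93.0 CPM at 30 °C and 9.47 and 12.6 CPM at 40 °C in WT, a difference of −1.50 ± 0.29. NOG1, at 381 and 463 CPM at 30 °C and 24.8 and 30.5 CPM at 40 °C in WT, differed by −1.26 ± 0.20 (adjusted p = 4.42e-05) and RRP12, of the small subunit, by −1.25 ± 0.17. For each of these genes IDRm was higher than WT in both libraries at 30 °C and lower at 40 °C. NSR1, CIC1 and SOF1, which also fell steeply, had differences of −0.40 ± 0.86, −0.48 ± 0.41 and 0.01 ± 0.27 with no call, at 2.30 to 7.09 CPM in the libraries of both strains at 40 °C. RPC53, of polymerase III, differed by −0.89 ± 0.24, one of 4 negative differences among 21 polymerase subunits, and this call ended without WT 40 °C replicate 2 or IDRm 40 °C replicate 1.

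Chaperones of nascent chains, TRiC and prefoldin had 7 negative and no positive differences among 21. The share with a negative difference was 33.3%, and over all genes it was 8.52%. SSB1 (YDL229W, chromosome IV, 44065 to 45906) was read at 1599 and 1562 CPM at 30 °C and 135 and 132 CPM at 40 °C in IDRm and 1613 and 1479 CPM at 30 °C and 380.3 and 412 CPM at 40 °C in WT, a difference of −1.60 ± 0.10 (edgeR, adjusted p = 4.58e-13). SSB2 and CCT5 differed by −0.81 ± 0.10 and −0.60 ± 0.13. Sterol synthesis was negative in 10 of 23 cases (43.5%) and positive in none. ERG13 (YML126C, chromosome XIII, 19060 to 20535), which makes hydroxymethylglutaryl-CoA, was read at 871 and 804 CPM at 30 °C and 270.1 and 259 CPM at 40 °C in WT, a difference of −1.49 ± 0.11, ERG2 at 382 and 412 CPM at 30 °C and 115 and 118 CPM at 40 °C, a difference of −1.55 ± 0.14, and ERG20, farnesyl diphosphate synthase, differed by −1.29 ± 0.10. In all 3 enzymes both IDRm libraries lay below both WT libraries at 40 °C, while at 30 °C IDRm minus WT was −0.14 ± 0.07, 0.19 ± 0.08 and 0.11 ± 0.06 on the log2 scale. Phosphate genes were negative in 10 of 16 cases and positive in none, with PHO5 at 379 and 471 CPM at 30 °C and 95.5 and 84.9 CPM at 40 °C in WT and a difference of −1.45 ± 0.15, and PHO89 and PHM8 at −0.60 ± 0.19 and −0.68 ± 0.20, where the call of PHO89 ended in 7 settings (adjusted p of 0.0747 to 0.241) and that of PHM8 in 11 (0.0595 to 0.33). PMA1 was read at 9129 and 9823 CPM at 30 °C and 8163 and 8724 CPM at 40 °C in WT, a difference of −0.79 ± 0.09 (adjusted p = 3.61e-07), and MEP2, an ammonium permease, differed by −0.86 ± 0.16. URA6, uridylate kinase, differed by −1.43 ± 0.17, and CHS3, PSE1 and FAS2 by −1.09 ± 0.16, −0.95 ± 0.15 and −0.76 ± 0.10.

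Hexose transporters had 5 positive (50%, against 3.81% of all genes) and no negative differences among 10. Their summed share of counts was 0.300% and 0.297% at 30 °C and 0.703% and 0.677% at 40 °C in IDRm. In WT it was 0.261% and 0.215% and then 0.271% and 0.281%. SUC2 (YIL162W, chromosome IX, 37385 to 38983), invertase, which splits sucrose outside the cell, was read at 42.3 and 47.2 CPM at 30 °C and 262 and 271 CPM at 40 °C in IDRm and at 54.6 and 40.3 CPM at 30 °C and 75.7 and 74.1 CPM at 40 °C in WT, a difference of 1.96 ± 0.15 (edgeR, adjusted p = 4.66e-11). MTH1, a corepressor of hexose transporter genes, was read at 11.2 and 15.9 CPM at 30 °C and 45.5 and 49.0 CPM at 40 °C in IDRm and at 20.2 and 11.4 CPM at 30 °C and 17.5 and 17.2 CPM at 40 °C in WT, a difference of 1.77 ± 0.27. At 40 °C the IDRm libraries of both genes lay far above those of WT, and at 30 °C the strains overlapped. IMA1, isomaltase, differed by 1.53 ± 0.29 and HXT7 by 1.11 ± 0.23, and neither was called without WT 30 °C replicate 1 (adjusted p = 0.144 and 0.699). HXT6 differed by 2.65 ± 0.86 (adjusted p = 0.0377), a call that ended without any of 6 single libraries, and its counts cannot be told from those of HXT7. Named after their values were seen, HXT4, HXT3 and HXT2 were at 1.41, 1.14 and 1.09. HXT3 rose in IDRm (0.49) and fell in WT.

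FAT3, a protein of fatty acid uptake, was read at 2.84 and 2.85 CPM at 30 °C and 95.6 and 93.8 CPM at 40 °C in IDRm and at 2.92 and 4.60 CPM at 30 °C and 30.3 and 23.2 CPM at 40 °C in WT, a difference of 2.12 ± 0.38. UBI4 (YLL039C, chromosome XII, 64062 to 65207) was read at 147 and 164 CPM at 30 °C and 3945 and 4261 CPM at 40 °C in IDRm and at 412 and 412 CPM at 30 °C and 3871 and 3682 CPM at 40 °C in WT, a difference of 1.52 ± 0.10 (adjusted p = 1.33e-12). Here the strains were farther apart at 30 °C, where IDRm minus WT was −1.40 ± 0.07, than at 40 °C. The uncharacterised frame YKR075C was read at 14.6 and 19.0 CPM at 30 °C and 64.8 and 60.7 CPM at 40 °C in IDRm and at 23.2 and 8.11 CPM at 30 °C and 5.57 and 7.53 CPM at 40 °C in WT, a difference of 3.31 ± 0.55, and MPF1 differed by 1.73 ± 0.38. Glycogen and trehalose genes were positive in 6 of 17 cases (35.3%, against 3.81% of all genes) and negative in none. GLG1, glycogenin, was at 1.60 ± 0.28 and GSY1 at 0.99 ± 0.25. At 30 °C IDRm minus WT was −0.87 ± 0.24 for GLG1 and −0.74 ± 0.22 for GSY1 on the log2 scale. The call of GSY1 ended without WT 30 °C replicate 1 (difference 0.55) and without IDRm 30 °C replicate 1 (difference 0.66). General stress genes were positive in 6 of 37 cases (16.2%, against 3.81% of all genes) and negative in none. Their median change was 4.96 in IDRm and 4.27 in WT, with a median of 0.25 for the members' own differences. At 40 °C they held 5.14% and 5.31% of the counts in IDRm and 3.78% and 3.44% in WT. Sulfur genes had 6 positive (28.6%, against 3.81% of all genes) and 2 negative differences (9.52%, near the 8.52% of all genes) among 21. The sulfate permease SUL2 was at 1.88 ± 0.37 and SAM1 at −1.09 ± 0.11. Amino acid biosynthesis had 10 positive (18.2%, against 3.81% of all genes) and 6 negative (10.9%, against 8.52%) among 55. SER3 was at 0.96 ± 0.14 and ARO1 at −0.43 ± 0.10. For ARO1 IDRm minus WT was 0.49 ± 0.07 at 30 °C on the log2 scale. At 40 °C ARO1 was read at 285 and 287 CPM in IDRm and 268 and 282 CPM in WT.

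For the chaperones induced most, no difference between the strains was detected in edgeR, with wide errors for several. HSP104 differed by −0.06 ± 0.28, HSP82 by −0.18 ± 0.24, SSA1 by −0.09 ± 0.10, SSA4 by 0.40 ± 0.69 and HSP26 by 0.18 ± 0.75, with adjusted p from 0.619 to 0.932. HSP26 was read at 27.7 and 115 CPM at 30 °C and 8351 and 7875 CPM at 40 °C in WT and SSA4 at 158 and 484 CPM at 30 °C and 24626 and 23680.1 CPM at 40 °C. Replicate 2 of WT at 30 °C was the higher one in both, by a wide margin. Without WT 30 °C replicate 2 the difference of HSP26 was −1.04 (adjusted p = 0.000433), and without WT 30 °C replicate 1 it was 1.00 (adjusted p = 0.000356). HSP42, BTN2 and HSP30 turned in the same way, from 0.79, 1.52 and 1.41 without WT 30 °C replicate 1 to −1.08, −1.16 and −1.68 without replicate 2. None of the 12 genes of the Hsp70 system, the 13 of Hsp90 and the 6 of aggregate handling was called in the difference with all libraries. Single libraries mattered in the first 2 of these lists as well. Without WT 30 °C replicate 1 APJ1 went from 0.44 to 1.08 and SSA3 from 0.38 to 1.04. Without WT 30 °C replicate 2 HSP82 went from −0.18 to −0.44. MSN4 was at 0.56 ± 0.15, a call that ended without any of 4 single libraries.

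Some genes moved in opposite directions. In 6 genes a rise in IDRm stood against a fall in WT with a called difference, and in 12 genes the reverse. The former were YKR075C, HXT3, MET14, REG1, ITR2 and HIS4. Of these REG1, a subunit of the phosphatase that acts on the kinase Snf1, was at 0.29 in IDRm and −0.48 in WT, and HIS4, of histidine synthesis, at 0.22 and −0.24. The latter included RDL1 (−0.50 and 0.47), GSC2, a glucan synthase (−0.64 and 0.17), HOG1, the kinase of the osmotic response (−0.22 and 0.44), GPM1, phosphoglycerate mutase (−0.39 and 0.21), and TAL1, transaldolase (−0.28 and 0.30). All were named after their values were seen, and most of the changes were under 2-fold in either strain. Scaling by library size alone moved the median change in IDRm from 0.0057 to −0.221. That shift is about the size of the rises of HIS4 (0.22) and MET14 (0.21), so their direction rests on the scaling. The factors that correct for composition went from 1.03 and 1.04 to 0.90 and 0.87 in IDRm. In WT they went from 1.05 and 1.08 to 0.90 and 0.89, a similar step. The rises of GSC2 (0.17) and GPM1 (0.21) in WT are as small, so their direction rests on the scaling too. ENB1, also among the 12, was at −0.30 in IDRm, a call that ended with DESeq2 size factors and in the DESeq2 Wald test.

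The share of called differences rose with level. In the lowest of the 5 bins of mean level 0.699% had a negative and 1.92% a positive difference, and in the highest bin 24.2% and 5.24%. The median difference went from 0.11 in the lowest to −0.11 in the highest bin. As above, genes of the lowest bin could pass the filter through 1 group in which they were high. Highly read genes are measured more precisely, and the ribosomal proteins lie among them. The part of level in the counts of the lists was not tested.

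At 42 °C the IDRm strain was measured against the same 30 °C libraries, so the values are set side by side. The general stress genes had a median of 4.96 at 40 °C and 3.36 at 42 °C, the Hsp70 system 3.57 and 2.61, aggregate handling 5.81 and 5.16, and trehalose and glycogen 3.61 and 1.65. Ribosomal proteins had −1.54 and −0.36, and both biogenesis lists −3.32 and −1.41 (small subunit) and −3.30 and −1.45 (large subunit). HSP104 was read at 17410.1 and 17646 CPM at 42 °C and NSR1 at 53.3 and 57.7 CPM. PAB1 stood at −3.12 and −3.09, ERG13 at −3.16 and −2.83 and PMA1 at −0.95 and −1.56, while SUC2 stood at 2.57 and 0.48. The ribosomal proteins held 13.4% of the counts in both libraries at 42 °C.

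**Figure D5:**
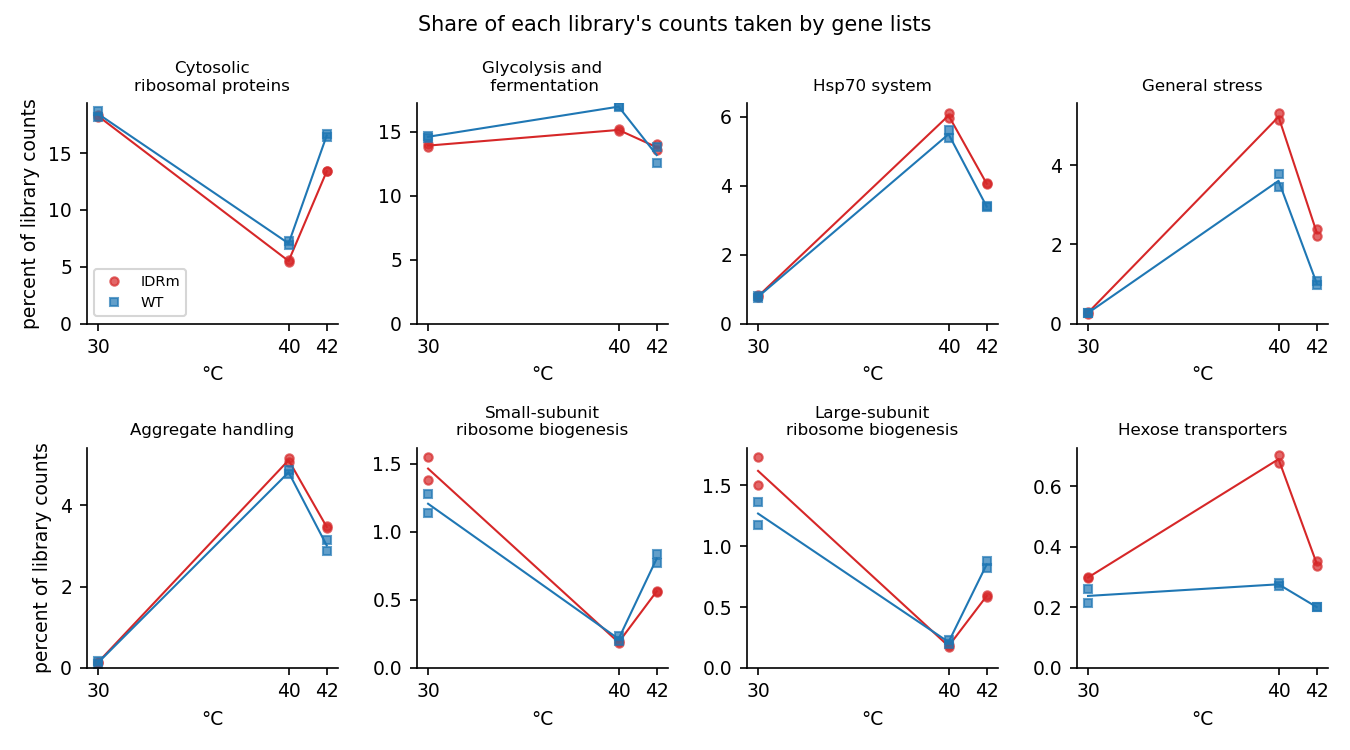
Percent of all counts of a library taken by 8 gene lists at 30, 40 and 42 °C in IDRm (red circles) and WT (blue squares), with lines through the means of 2 libraries. In IDRm the ribosomal proteins go from 18.3% to 5.51% and 13.4%, and the hexose transporters stand at 0.69% at 40 °C in IDRm and at 0.276% in WT.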

How the data were processed

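Ribosome footprints were counted per gene by the authors, who deposited 1 table of raw counts for 12 libraries. Per the labels' protocols, yeast cultures were filtered and flash-frozen after 10 min at 30, 40 or 42 °C, and RNA was extracted with hot phenol. Per the submitters' processing notes, bcl2fastq 2.17.1.14, cutadapt 1.17, Bowtie2 2.2.6, STAR 2.5.2b and genome build R64 were used. What each program did, how strand was treated and how reads were counted is not given in the sources used here, so counts of overlapping or antisense frames cannot be told apart. The 4 IDRm libraries at 30 and 40 °C held 4526976 to 5717879 counts.

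Tests used edgeR 4.0.16 under R 4.3.3 (trimmed mean of M-values scaling, robust quasi-likelihood F tests, Benjamini-Hochberg adjustment over 5719 genes, with calls at 0.05 or less). The expression filter had a minimum count of 10, with 15 in total. All 12 libraries entered 1 fit with 1 mean for each of 6 groups, which left 6 residual degrees of freedom (median prior 25.5). Contrasts were IDRm at 40 against 30 °C, the same in WT, and the difference of both. The change at 42 °C and the strains at 30 °C were read from the same fit. A standard error is the absolute log2 change divided by the square root of F and is approximate. CPM are per 1000000 counts of the scaled library size, and log2 values used a prior count of 2. The tests were checked on simulated data.

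The R64 annotation held 6014 of the gene identifiers, and the 683 it lacked took 0.0461% to 0.0798% of the counts in each of the 4 libraries. Shared sequence is the percent of the 28-base words of a coding sequence found in another one, and 191 tested genes shared at least 20%. Promoter windows were read from the R64 genome of RefSeq, 400 to 101 bases before the start codon.

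The strain and temperatures described here and the 46 gene lists were chosen with earlier results of these data known. One listed symbol, SDC25, was not found in the table, and 1 listed gene each of elongation, ribosomal proteins and sulfur and 2 alpha-cell genes did not pass the filter. Named genes are the 12 highest and 12 lowest called changes in IDRm at a mean of at least 20 CPM and of the same sign in both replicate numbers, and the 8 highest and 8 lowest called differences of the strains at that level. From each list up to 3 called members with the largest change (2 by level where none was called) and 1 further member called in the difference of the strains were added, and DED1, DBP1, PAB1, HSP104, SSA4, HSP26, HSP12, HSP82, SSA1, HSF1, MSN4, TEF1, PMA1, ADH1, PGK1 and ACT1 always. This gave 184 genes, not all of which are printed.

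Alternatives were DESeq2 size factors, library size alone, no filter, DESeq2 1.42.0 with its Wald test, fits without the other groups, a replicate block, a test against 1.5-fold, a 2-fold minimum, leaving out genes with shared sequence, and leaving out each library in turn. In the last case the single library of a group was assumed to vary like the other groups. Calls of single genes were not followed under the 1.5-fold test, the 2-fold minimum or the removal of genes with shared sequence.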

Additional observations from a re-analysis of the deposited data

Results flagged for a closer look

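In 73 named genes the change from 30 to 40 °C differed between IDRm and WT at an adjusted p of at most 0.05 in edgeR. Values below are the log2 change of IDRm minus that of WT. Such a value can come from the levels at 30 °C as well as from those at 40 °C. In ARO1, CIT2 and GSY1 IDRm minus WT at 30 °C was 0.49, 0.45 and −0.74 on the log2 scale. At 40 °C CIT2 was read at 890 and 904 CPM in IDRm and 872 and 896 CPM in WT.

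Genes of ribosomes and translation with a negative difference were RPL11A (−1.51), RPL24B (−1.49), RPL4A (−1.21), RPL21B (−0.89), RSA4 (−1.50), NOG1 (−1.26), RRP12 (−1.25), RPC53 (−0.89), TIF3 (−1.21), PAB1 (−0.92), DED1 (−0.32), NIP1 (−0.88), GCD11 (−0.73), EFB1 (−0.88), EFT1 (−0.62), SUP35 (−0.76), TEF1 (−0.48), ALA1 (−0.64), CDC60 (−0.83) and HRP1 (−0.54), which binds RNA in 3′ end formation. Chaperones and degradation factors with a negative difference were SSB1 (−1.60), SSB2 (−0.81), CCT5 (−0.60), TIM44 (−0.63) and RPN10 (−0.59), and UBI4 (1.52) and ATG17 (1.12) had a positive one.

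In metabolism, negative differences were seen in ERG13 (−1.49), ERG2 (−1.55), ERG20 (−1.29), FAS2 (−0.76), URA6 (−1.43), IMD4 (−1.03), SHM1 (−1.27), SAM1 (−1.09), ARO1 (−0.43), CDC19 (−0.68) and CIT2 (−0.43). Positive ones were seen in SUC2 (1.96), MTH1 (1.77), HXT6 (2.65), HXT7 (1.11), IMA1 (1.53), FAT3 (2.12), GLG1 (1.60), GSY1 (0.99), SUL2 (1.88), SER3 (0.96), MDH2 (0.77), a malate dehydrogenase, NDI1 (0.63), GRX2 (0.54), a glutaredoxin, and URA3 (0.50).

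At the cell surface and in the other lists, negative differences were those of PHO5 (−1.45), PHO89 (−0.60), PHM8 (−0.68), PMA1 (−0.79), MEP2 (−0.86), CHS3 (−1.09), FKS1 (−0.67), OST1 (−0.77), PMT1 (−0.48), PSE1 (−0.95), ENB1 (−0.75), PDE2 (−1.15), a phosphodiesterase of cyclic AMP, YAP1 (−0.57) and STE3 (−1.87). Positive ones were those of TIP1 (0.45), AGA2 (1.13), MSN4 (0.56), PCL9 (0.90), MRPL36 (0.61), MPF1 (1.73) and YKR075C (3.31).

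Of the 73 calls, 21 ended under at least 1 of the settings followed gene by gene. The 1.5-fold test and the 2-fold minimum were not among these. A 2-fold minimum ends every call of a smaller difference, such as that of PAB1 (−0.92). Without WT 30 °C replicate 1 the calls of ATG17 (adjusted p = 0.225), GRX2 (0.163), HXT7 (0.699), IMA1 (0.144) and GSY1 (0.248) ended. Without WT 40 °C replicate 2 those of EFT1 (0.135), RPC53 (0.11) and STE3 (0.06) ended. TIM44 was lost without IDRm 40 °C replicate 1 (0.0568), TIP1 without IDRm 40 °C replicate 2 (0.0565) and TEF1 with library size alone (0.0985). The other calls ended in 4 or more settings, with adjusted p of 0.0503 to 0.18 for CIT2, 0.0506 to 0.117 for DED1, 0.051 to 0.205 for HXT6, 0.0798 to 0.173 for MRPL36, 0.0507 to 0.073 for MSN4, 0.0553 to 0.274 for PCL9, 0.0595 to 0.33 for PHM8, 0.0747 to 0.241 for PHO89, 0.0526 to 0.0953 for URA3 and 0.0602 to 0.102 for YAP1. DESeq2 gave no adjusted p for 11 of the 73 genes, whose mean counts lay below its own filter.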

How the results depend on the processing

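The counts of genes that rose or fell in IDRm were within 1.5 times those reported under other scalings, no filter, the fit of 4 libraries, DESeq2 and each single library left out, with ranges of 1943 to 1971 higher and 2122 to 2185 lower genes for the last. A test against 1.5-fold left 1416 higher and 1481 lower genes, and a 2-fold minimum left 1257 and 1210. For the difference of the strains the same settings left 21 and 42, and 51 and 60, genes higher and lower in IDRm, DESeq2 gave 119 and 340 with no adjusted p for 2107 genes, and leaving out single libraries gave 119 to 278 and 307 to 521. With library size alone 39.6% of the called genes were higher in IDRm at 40 °C, against 48.3% in the scaling reported. Among 184 named genes no change in IDRm reversed in the settings followed gene by gene, and the calls of ENB1, MRPL36, SAG1 and SER3 ended in some of them. The 1.5-fold test and the 2-fold minimum were not followed in this way. Without WT 30 °C replicate 2 the difference of the strains turned to called negative values in BTN2 (−1.16), HSP26 (−1.04), HSP30 (−1.68) and HSP42 (−1.08), from 1.52, 1.00, 1.41 and 0.79 without WT 30 °C replicate 1, and the cause was not tested. Replicate numbers gave no sign of pairing, though the labels do not say whether a number marks 1 culture: deviations of libraries of 1 number correlated at −0.0117 in IDRm and −0.0007 in WT between 30 and 40 °C, and a replicate block gave 2142 and 2284 genes in IDRm and 246 and 538 for the difference, where INO1 (adjusted p = 0.0266), MDH1 (0.0476), MET6 (0.0386) and PHO84 (0.000794) were gained and PHM8 (0.0595) was lost among named genes. Depth limits genes near 0 at 30 °C, such as COX26 and HXT6.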
